A study of Mus musculus with 4 samples.

Results

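Glucose-burning enzymes, the membrane transporters that feed and drain them, and further genes of the response to low oxygen were compared between Chd7 mutant and control mouse forebrain. The set holds 36 genes, matched by symbol to the rows of a count table of 24982 genes, and all 36 were found there. It divides into 15 glycolytic enzymes, 3 transporters of glucose and lactate, 16 other hypoxia targets and the 2 hypoxia-inducible factor (HIF) alpha subunits Hif1a and Epas1. The forebrain was micro-dissected at E10.5, an embryonic day, and polyA RNA was sequenced in 2 control and 2 conditional knockout (cKO) libraries. Control embryos were Chd7 +/f, with 1 wild-type and 1 floxed allele, and their label names no Cre. The cKO embryos were Sox1 cre+/- and Chd7 f/f, so Chd7, which encodes an ATP-dependent chromatin remodeller, is deleted where a Cre named for Sox1, a gene of the early neural tube, is active. Since Cre is named for the cKO alone, an effect of the Cre allele and one of Chd7 loss cannot be told apart, and a floxed allele is common to both groups. It is not stated in the labels if a library came from 1 embryo or several, or if the libraries of a group came from separate litters; the p-values therefore measure the spread between these libraries.

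Glycolysis splits glucose into pyruvate in the cytosol, and lactate dehydrogenase turns pyruvate into lactate when mitochondria do not take it up. Under low oxygen the HIF alpha subunits escape prolyl hydroxylation and degradation, pair with a beta subunit and bind short elements with the core letters ACGTG near their target genes, among them most glycolytic enzymes. The early embryonic neural tube is known for a strongly glycolytic metabolism before its blood supply is complete, and for a shift towards oxidative metabolism as neurogenesis proceeds.

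The libraries held 16581252 to 17096522 counts, and 14235 genes passed the count filter and were tested. Chd7 itself measured 339 and 345 CPM (counts scaled to library size by TMM factors) in the controls and 136 and 132 CPM in the cKO libraries, which is −1.35 ± 0.05 as a log2 fold change with its standard error (SE) in edgeR's quasi-likelihood test (adjusted p = 8.7e-05). These counts cover all exons of Chd7, the floxed part included. Of 10 forebrain progenitor markers, 0 were at 0 in every library, 3 were called lower by edgeR and 0 higher (4 lower and 1 higher by DESeq2), and the median log2 fold change was −0.16. Lhx2 was at 298 and 216 CPM in the controls and 157 and 125 CPM in the cKO libraries, and Pax6 at 218 and 208 CPM against 105 and 104 CPM, both called lower. The 2 markers with a log2 fold change above 0 were Six3 (0.49, adjusted p = 0.0949) and Otx2 (0.22, adjusted p = 0.543). In bulk tissue, fewer cells of a type and less RNA per cell cannot be told apart. A gene was called at an edgeR adjusted p under 0.05. Over all genes tested 3.70% were called, of which 223 were higher in the cKO and 303 lower, and the median log2 fold change was −0.0003.

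Of the 36 genes, 35 passed the count filter, and 4 of the 35 were called higher in the cKO and 0 lower, where 1.57% of all genes tested were called higher and 2.13% lower. The 4 were the glucose transporter Slc2a1, the lactate exporter Slc16a3, the mTORC1 inhibitor Ddit4 and the endoplasmic reticulum oxidase Ero1l. In the authors' deposited table the adjusted p was under 0.05 for Slc2a1 (6.19e-08) and Ddit4 (2.33e-04). It was above 0.05 there for Slc16a3 (0.0991) and Ero1l (0.0688). In edgeR 0 of 14 tested glycolytic enzymes were called in either direction, although 10 of them had an unadjusted p under 0.05, each of these with a higher level in the cKO. The DESeq2 Wald test called 6 of the 14 higher and limma-voom 0. Among all genes tested, 8.42% had an unadjusted p under 0.05 in edgeR with a higher level. The median log2 fold change was 0.22 over the enzymes, 0.66 over the transporters and 0.17 over the other hypoxia targets. Both cKO libraries lay above both controls for 22 of the 35 genes (62.9%) and below both for 2, where 24.3% and 24.0% of all genes tested did so. The genes were chosen with earlier results of these data known, so these shares describe the set and are not a test of it.

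The stretches around the ACGTG core in the promoters of the 4 called genes are shown because this core is the part that HIF proteins contact. Each is 30 bases, read 5′ to 3′ on the strand of its gene from the RefSeq table of GRCm38.p6, with the core in capitals; where the core lies on the opposite strand it reads CACGT. The Slc2a1 stretch is at chr4:119108696-119108725 (+), the Slc16a3 stretch at chr11:120949037-120949066 (+), the Ddit4 stretch at chr10:59951941-59951970 (−) and the Ero1l stretch at chr14:45318619-45318648 (−).
Slc2a1: agtcccgccccggACGTGctccccaggccc
Slc16a3: gtgACGTGcgcgggggACGTGccgcgcgac
Ddit4: gagaacgttgcgaACGTGcgcccggtgcct
Ero1l: gcgcgcgccgctgCACGTccgcaggggagg

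The cores began 36 bases before the annotated start in Slc2a1, 187 in Ddit4 and 63 in Ero1l. In Slc16a3 they began 27 and 14 bases before an annotated start that lies inside the gene, whose span begins at 120948484. Of the 250 bases before that start, 14 are annotated exon. In the 250 bases before the start, 34 were annotated exon for Slc2a1, 64 for Ddit4 and 69 for Ero1l. A RefSeq promoter entry was matched for 32 of the 36 genes, and Slc2a3, Bnip3l, Ndrg1 and Epas1 had none. In the 300-base windows, which run from 250 bases before a start to 50 after it, ACGTG was found on either strand in 26 of the 32 genes (81.2%), against 21.8% of 27025 genes compared from that table, which leave out 1 chromosome. By class, the core was in 10 of 15 enzymes (66.7%), 2 of 2 transporters and 13 of 14 other hypoxia targets (92.9%). A gene was counted if any of its windows held the core, and some genes have several windows. Per window, ACGTG was in 61.7% of 47 member windows and in 19.6% of the 32851 windows compared. It was in 46.2% of the 26 enzyme windows and in 77.8% of the 18 windows of other hypoxia targets. The sister core GCGTG, searched on both strands, was in 21 of the 32 genes (65.6%) and in 35.2% of the same 27025 genes. The members were listed as glycolysis and hypoxia response genes, and the genes compared were not matched to them in base composition or level. These shares therefore describe the list and are not a test of it. A match of letters is a description of the sequence and does not show that a factor binds there, since binding was not measured in these libraries.

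For the enzymes, the 250 bases before an annotated start of Ldha and before that of Pgk1 are printed whole, because they carry several cores and belong to enzymes whose levels were among the highest here. The Ldha stretch is at chr7:46845554-46845803 (+) and overlaps no annotated exon. It precedes an annotated start that lies inside the gene, whose span begins at 46842274. The Pgk1 stretch is at chrX:106186850-106187099 (+), before the gene span and likewise outside exons. These stretches are not typical of all enzymes. The window of another annotated start of Ldha holds no ACGTG, nor do those of Tpi1, Gpi1 and Pfkl. Capitals again mark ACGTG on either strand; the palindrome CACGTG holds the core on both strands.
Ldha: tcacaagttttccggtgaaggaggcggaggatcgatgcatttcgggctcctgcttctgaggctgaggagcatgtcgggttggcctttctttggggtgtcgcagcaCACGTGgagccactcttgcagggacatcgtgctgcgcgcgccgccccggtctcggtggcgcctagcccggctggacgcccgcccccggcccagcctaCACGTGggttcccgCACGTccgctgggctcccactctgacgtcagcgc
Pgk1: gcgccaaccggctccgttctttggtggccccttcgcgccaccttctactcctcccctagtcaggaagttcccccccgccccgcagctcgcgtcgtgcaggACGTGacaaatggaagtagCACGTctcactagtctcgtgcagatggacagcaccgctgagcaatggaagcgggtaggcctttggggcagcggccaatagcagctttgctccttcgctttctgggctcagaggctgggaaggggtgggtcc

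Glucose enters cells through Slc2a1 (GLUT1, chromosome 4, 119108745 to 119137330, GRCm38.p6), the main glucose carrier of embryonic tissue. Its levels were 215 and 248 CPM in the controls and 312 and 369 CPM in the cKO libraries. The groups did not overlap, and the lower cKO library exceeded the higher control by 25.9%. The log2 fold change was 0.56 (SE 0.09, adjusted p = 0.0233, edgeR). The call ended without control replicate 1 (log2 fold change 0.46, adjusted p = 0.054) and without cKO replicate 2 (0.43, adjusted p = 0.08). Within the transporters of the set, Slc2a1 was the most abundant per length, with 66.0 ± 6.7 CPM per kilobase of exon in the controls and 97.2 ± 11.4 in the cKO libraries (SD, n = 2).

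Slc2a3 (GLUT3), the high-affinity glucose carrier typical of neurons, was at 72.5 and 144 CPM in the controls and 164 and 180 CPM in the cKO libraries. Control replicate 1 was far below the other 3 libraries, and the log2 fold change of 0.67 carried an SE of 0.26 (adjusted p = 0.234, edgeR). Leaving out control replicate 1 gave 0.26 and leaving out control replicate 2 gave 1.25 (adjusted p = 8.4e-05). The summed surface ectoderm markers were likewise lowest in control replicate 1, at 19.4 CPM against 57.6 to 80.6 CPM in the other 3 libraries. Of the 8 tested, 0 were called by edgeR, 1 had an unadjusted p under 0.05 with a higher level, and DESeq2 and limma-voom each called 1. Without control replicate 2, where Slc2a3 was called, 5 of these 8 markers were called higher too, with a median log2 fold change of 1.83. Their part in the Slc2a3 difference was not tested.

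Slc16a3 (MCT4, chromosome 11, 120948484 to 120959000), which exports lactate from strongly glycolytic cells, was at 75.04 and 87.35 CPM in the controls and 109 and 148 CPM in the cKO libraries. Both cKO libraries were above both controls, and cKO replicate 2 was the highest. The log2 fold change was 0.66 (SE 0.14, adjusted p = 0.0474, edgeR). The adjusted p was 0.137 without control replicate 1, 0.127 without cKO replicate 2, 0.0964 in the DESeq2 Wald test, 0.0562 in limma-voom and 0.0503 over genes of at least 5 CPM. The sum of the 3 transporters was 362 and 479 CPM in the controls and 586 and 697 CPM in the cKO libraries.

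**Figure D1:**
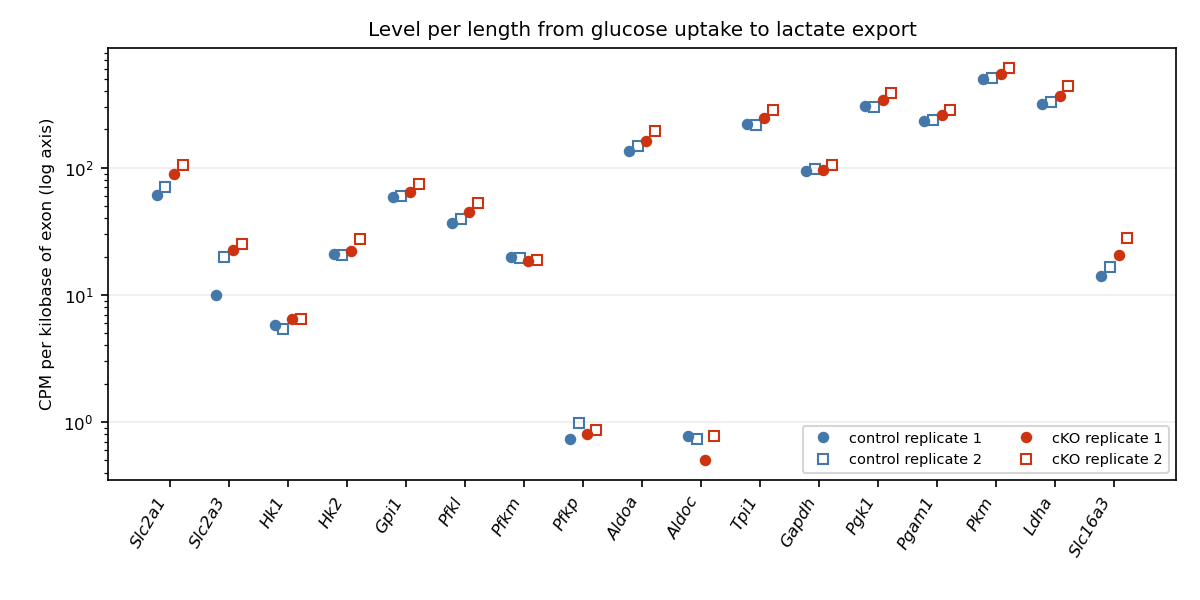
Level of the transporters and 14 tested enzymes in the order of the pathway, in CPM per kilobase of exon on a log axis, with 1 point per library (filled circles, replicate 1; open squares, replicate 2; blue, control; red, cKO). Pkm, Ldha and Pgk1 are the most abundant, Pfkp and Aldoc the least, and the red points lie above the blue ones for 13 of these 17 genes.

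The 15 enzymes took 0.708% and 0.729% of all counts in the controls and 0.787% and 0.892% in the cKO libraries. Both cKO libraries were above both controls, and cKO replicate 2 was further away than cKO replicate 1. Relative to the control mean, the median log2 ratio of the enzymes was 0.13 in cKO replicate 1 and 0.30 in cKO replicate 2. Per length, the controls held most Pkm, at 504 ± 12 CPM per kilobase of exon (SD, n = 2), followed by Ldha with 325 ± 8.3, Pgk1 with 304 ± 3.4, Pgam1 with 235 ± 4.1, Tpi1 with 217 ± 2.4 and Aldoa with 141 ± 9.1. With lengths taken from the longest transcript in place of all exons together, the control levels were 1036 for Pkm, 593 for Ldha, 374 for Pgk1, 373 for Tpi1, 339 for Aldoa and 262 for Pgam1, so the order from Pgk1 to Aldoa depends on the length used.

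In the upper part of the pathway, which spends ATP, Hk1 and Hk2 encode the hexokinases that trap glucose in the cell. Hk1 was at 49.8 and 45.6 CPM in the controls and 54.8 and 54.7 CPM in the cKO libraries, for a log2 fold change of 0.20 with SE 0.07 (adjusted p = 0.221, edgeR). Hk2, the hypoxia-inducible form, was at 126 and 123 CPM in the controls and 132 and 164 CPM in the cKO libraries. Its log2 fold change was 0.25 (SE 0.09, adjusted p = 0.230), and it ranged from 0.09 without cKO replicate 2 to 0.40 without cKO replicate 1. For both hexokinases the groups did not overlap, and neither difference passed the test. Gpi1, the isomerase that follows, was at 382 and 386 CPM in the controls and 416 and 477 CPM in the cKO ones (log2 fold change 0.22, SE 0.07, adjusted p = 0.135).

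Phosphofructokinase catalyses the committed step of glycolysis and has liver (Pfkl), muscle (Pfkm) and platelet (Pfkp) forms. Pfkl was at 244 and 265 CPM in the controls and 302 and 352 CPM in the cKO libraries. The log2 fold change of 0.36 (SE 0.08) had an adjusted p of 0.0516 in edgeR, just above the threshold, and it was called by the DESeq2 Wald test (adjusted p = 8.38e-04), with no count filter and with upper-quartile scaling. Pfkm went the other way, with 66.0 and 65.7 CPM in the controls and 62.0 and 63.3 CPM in the cKO libraries, which gave −0.07 ± 0.06 as the log2 fold change with SE (adjusted p = 0.614). It was the sole enzyme with both cKO libraries below both controls. Pfkp was low, at 9.78 to 13.1 CPM, with overlapping groups. As a share of the 3 forms per length of exon, Pfkl made up 64.1% and 65.8% in the controls and 70.0% and 72.7% in the cKO libraries, while Pfkm made up 34.7% and 32.6% against 28.7% and 26.1%. The shares did not overlap between groups; with 2 libraries against 2, the smallest p an exact permutation test can give is 0.333. With the longest transcript as the length, the control share of Pfkl was 73.8% and that in the cKO 79.1%.

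**Figure D2:**
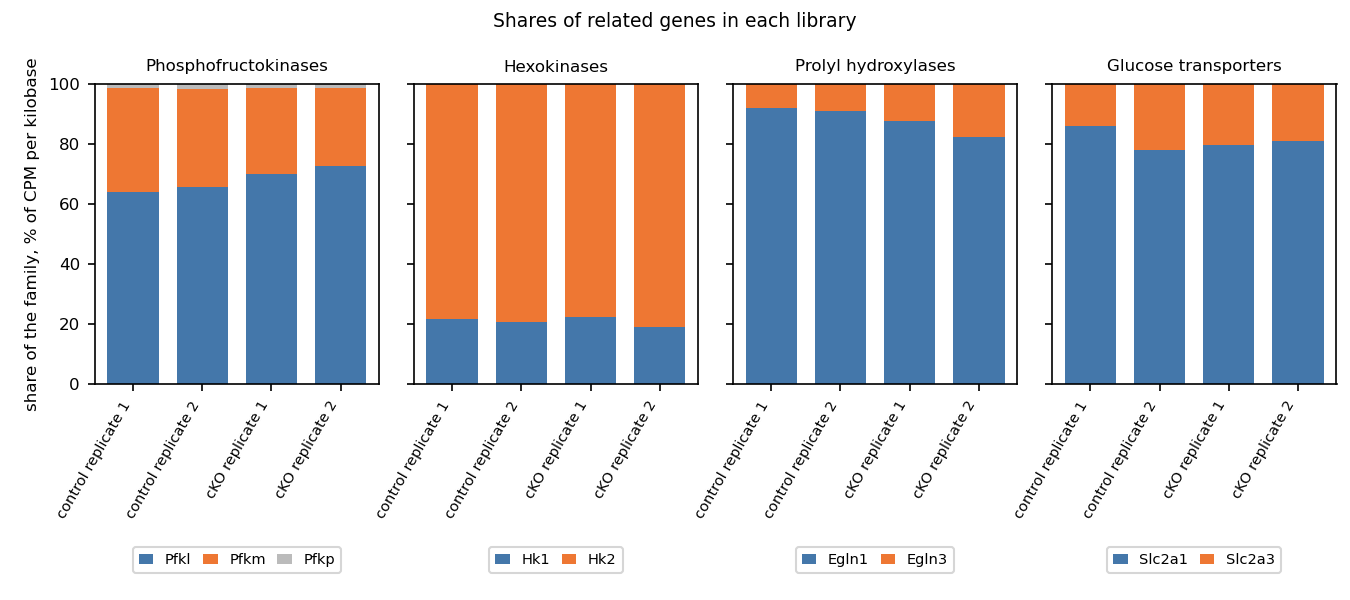
Shares of related genes in each library, in percent of the summed CPM per kilobase of exon of the family (stacked bars from 0 to 100%, 1 bar per library). The Pfkl share is larger in both cKO bars than in both control bars, as is the Egln3 share, whereas the hexokinase and glucose transporter shares overlap between groups.

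Aldolase splits the doubly phosphorylated sugar, and Aldoa made up 99.4% to 99.7% of the aldolase A and C signal per length in the 4 libraries. Aldoa was at 501 and 549 CPM in the controls and 604 and 716 CPM in the cKO libraries, for a log2 fold change of 0.33 with SE 0.08 (adjusted p = 0.0794, edgeR). Aldoc was low, at 1.63 to 2.54 CPM with overlapping groups. Tpi1, which interconverts the triose phosphates, was at 603 and 594 CPM in the controls and 677 and 782 CPM in the cKO libraries. Its log2 fold change was 0.29 (SE 0.07, adjusted p = 0.0682). For Aldoa and Tpi1 the cKO libraries exceeded both controls, and neither difference passed the edgeR test.

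The lower part of the pathway yields ATP and NADH. Gapdh, the dehydrogenase often taken as a loading control, was at 387 and 407 CPM in the controls and 394 and 438 CPM in the cKO libraries. The groups overlapped, and the log2 fold change was 0.07 (SE 0.06, adjusted p = 0.632, edgeR). Pgk1, the kinase that makes the ATP at this stage, was at 688 and 677 CPM in the controls and 772 and 875 CPM in the cKO ones (log2 fold change 0.27, SE 0.06, adjusted p = 0.0585). Pgam1, the mutase after it, was at 459 and 471 CPM against 511 and 568 CPM (0.22, SE 0.06, adjusted p = 0.0963). Pgk1 and Pgam1 therefore had non-overlapping groups and missed the threshold.

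Eno1, the enolase gene, had counts of 2 and 1 in the controls and 7 and 3 in the cKO libraries and was not tested. Of its 50-base stretches, 72.2% occur also in other annotated genes, and Eno1b, the copy with most shared sequence, had 490 and 624 counts in the controls and 668 and 774 in the cKO libraries. Reads of Eno1 could not be assigned with certainty, so its level is not known from these counts. Over 20% of the 50-base stretches were shared in 8 of the 36 genes, namely Eno1, Pgk1 (68.0%), Bnip3 (62.4%), Pgam1 (41.5%), Higd1a (36.6%), Pkm (34.4%), Gapdh (27.8%) and Bnip3l (23.4%). The recorded counting command sets no option for reads that map to several places, and the levels of these 8 genes are uncertain to that extent. It also sets no strand option, and 22.3% of the exon bases of Bnip3, 22.5% of those of Higd1a and 26.4% of those of Ankrd37 lie under exons of genes on the opposite strand, whose reads cannot be told apart from theirs.

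Pkm, the pyruvate kinase gene and the most abundant of the set, was at 2476 and 2562 CPM in the controls and 2712 and 3067 CPM in the cKO libraries. Its log2 fold change was 0.20 (SE 0.06, adjusted p = 0.136, edgeR). The counts are per gene and do not separate the M1 and M2 splice forms. Ldha, which makes lactate, was at 1056 and 1095 CPM in the controls and 1211 and 1453 CPM in the cKO libraries, and the groups did not overlap. The log2 fold change was 0.31 (SE 0.08, adjusted p = 0.0868), and without cKO replicate 2 it was 0.17.

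How many enzymes were called depended on the tool and on the libraries. The 6 that the DESeq2 Wald test called higher were Pfkl, Aldoa, Tpi1, Pgk1, Pgam1 and Pkm, where that test called 2.02% of all genes higher. The authors' deposited table has an adjusted p under 0.05 for these 6 and for Gpi1 (0.0493), with 1.99% of 13961 genes higher at that threshold. Leaving out cKO replicate 1 gave 9 enzymes called higher by edgeR, with 0.976% of all genes higher. Leaving out control replicate 2 gave 2 enzymes (2.40% of all genes), leaving out control replicate 1 gave 0 (0.827%) and leaving out cKO replicate 2 gave 0 (0.546%). The median over the enzymes was 0.30 without cKO replicate 1 and 0.13 without cKO replicate 2.

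**Figure D3:**
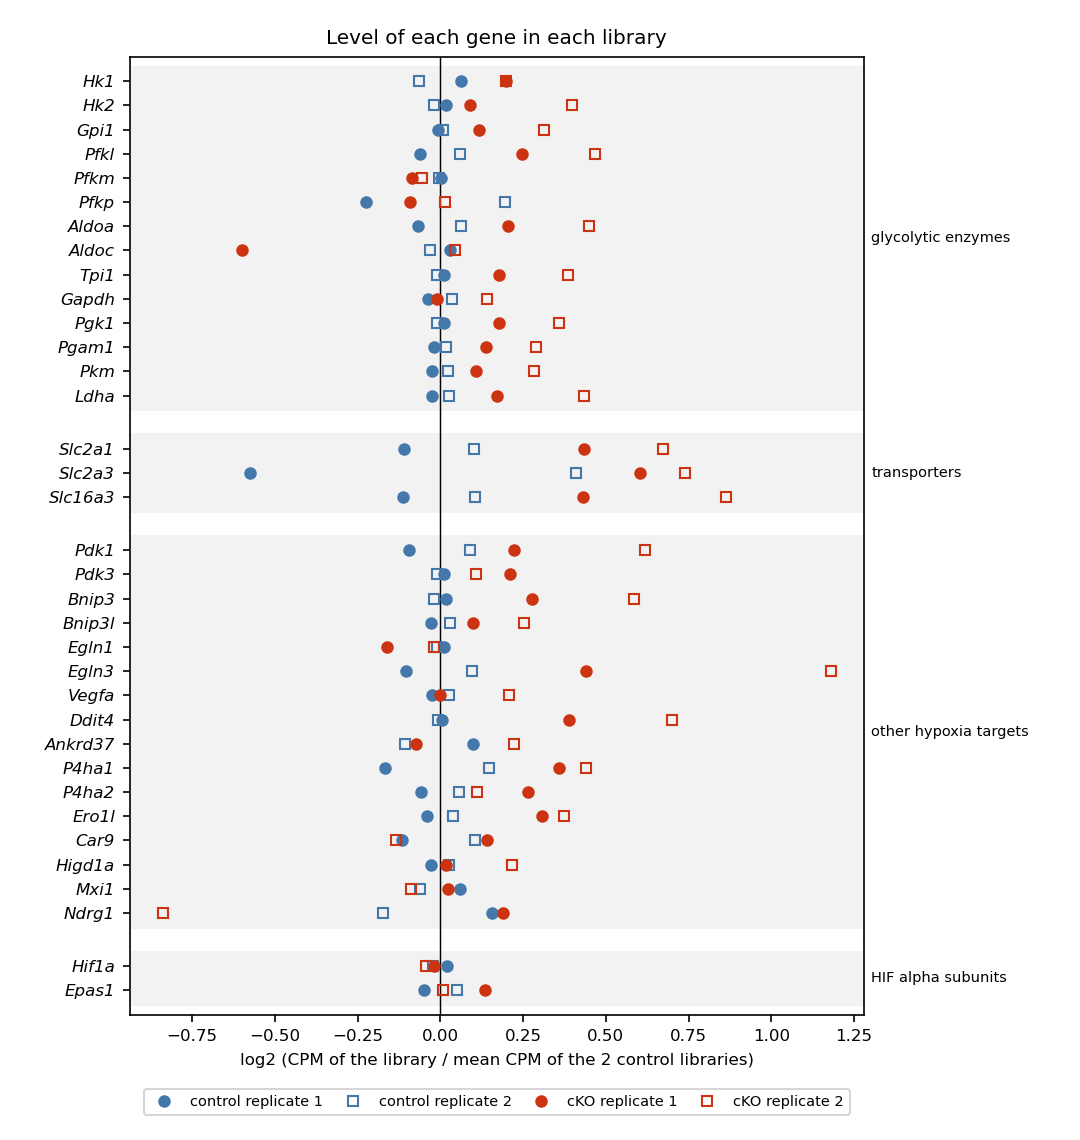
Each tested gene in each library, as the log2 ratio to the mean CPM of the 2 control libraries (symbols as in the pathway plot; the line at 0 is the control mean). The open red squares of cKO replicate 2 lie furthest to the right for 24 of 35 genes, and Hif1a and Epas1 lie close to the line.

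Among the other hypoxia targets, 2 of 16 were called higher and 0 lower (1.57% and 2.13% of all genes tested), and both cKO libraries lay above both controls for 9 and below both for 1 (24.3% and 24.0% of all genes tested). The DESeq2 Wald test called 4 of the 16 higher (Pdk1, Bnip3, Ddit4 and P4ha1), and edgeR called 4 without cKO replicate 1 and 0 without control replicate 1 or without cKO replicate 2. Ddit4 (REDD1, chromosome 10, 59949675 to 59951770), which restrains mTORC1 under low oxygen or energy stress, rose. It was at 65.3 and 64.7 CPM in the controls and 85.1 and 105 CPM in the cKO libraries. The controls were close together, and each cKO library was at least 30.4% above the higher of them. The log2 fold change was 0.55 (SE 0.10, adjusted p = 0.0303, edgeR). The adjusted p was 0.0684 without control replicate 1 and 0.0829 without cKO replicate 2.

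Ero1l (chromosome 14, 45283087 to 45318572, GRCm38.p6, where RefSeq names it Ero1a), which oxidises protein disulfide isomerase during protein folding, also rose. It was at 51.6 and 54.4 CPM in the controls and 65.6 and 68.7 CPM in the cKO libraries. The groups were tight and did not overlap. The log2 fold change was 0.34 (SE 0.07, adjusted p = 0.0407, edgeR), and it was 0.30 to 0.38 when any 1 library was left out. The adjusted p was above 0.05 in the fits without control replicate 1 (0.137), cKO replicate 1 (0.0925) or cKO replicate 2 (0.208), and in the DESeq2 Wald test it was 0.0556.

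The mitochondrial branch holds Pdk1 and Pdk3, kinases that shut pyruvate out of the citric acid cycle, and Bnip3 and Bnip3l, receptors for the removal of mitochondria by autophagy. Pdk1 was at 82.5 and 93.6 CPM in the controls and 103 and 135 CPM in the cKO ones (log2 fold change 0.43, SE 0.12, adjusted p = 0.122, edgeR). Bnip3 was at 53.6 and 52.2 CPM against 64.1 and 79.3 CPM (0.44, SE 0.10, adjusted p = 0.0646). Both genes had non-overlapping groups with cKO replicate 2 highest, missed the edgeR threshold and were called by the DESeq2 Wald test (adjusted p = 0.0195 and 0.0194). Pdk3 had a log2 fold change of 0.16 and Bnip3l one of 0.18, each with both cKO libraries above the controls and an adjusted p of 0.287 and 0.202.

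Egln1 (PHD2) and the HIF-inducible Egln3 (PHD3) encode the prolyl hydroxylases that mark HIF alpha for degradation. Egln3 was low, at 7.08 and 8.12 CPM in the controls and 10.3 and 17.2 CPM in the cKO libraries. Its fitted log2 fold change of 0.86 (SE 0.25, adjusted p = 0.129, edgeR) ran from 0.44 without cKO replicate 2 to 1.18 without cKO replicate 1. Egln1 was at 111 and 110 CPM in the controls and 98.9 and 109 CPM in the cKO libraries, with both cKO libraries below the controls and a log2 fold change, with SE, of −0.09 ± 0.06 (adjusted p = 0.543). The Egln3 share of the 2 hydroxylases per length was 7.91% and 9.09% in the controls and 12.3% and 17.6% in the cKO libraries.

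P4ha1 and P4ha2 are the catalytic subunits of the prolyl hydroxylase that matures collagen. P4ha1 was at 65.6 and 81.5 CPM in the controls and 94.3 and 99.7 CPM in the cKO ones (log2 fold change 0.40, SE 0.10, adjusted p = 0.0797, edgeR; DESeq2 0.0216). P4ha2 was at 10.3 and 11.1 CPM against 12.8 and 11.5 CPM (0.19, SE 0.15, adjusted p = 0.587). Both had non-overlapping groups, and neither passed the edgeR test. The summed markers of neural crest and mesenchyme, cells that make collagen, were 1037 and 1183 CPM in the controls and 1098 and 704 CPM in the cKO libraries, and their part in these differences was not tested.

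Vegfa, the growth factor that draws blood vessels into the neural tube, was at 97.9 and 101 CPM in the controls and 99.6 and 115 CPM in the cKO libraries. The groups overlapped, and the log2 fold change was 0.11 (SE 0.08, adjusted p = 0.534, edgeR). Higd1a, a mitochondrial survival factor, was likewise overlapping (0.12, SE 0.08, adjusted p = 0.519), as was Mxi1, a MYC antagonist (−0.03, SE 0.08, adjusted p = 0.894). Ankrd37, the carbonic anhydrase Car9 and Ndrg1 were at 0.946 to 5.03 CPM, and their log2 fold changes of 0.08, 0.01 and −0.24 had SEs of 0.24 to 0.42. At this depth a change of moderate size in these 3 genes was not detectable, and the sign of each turned when a library was left out.

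The HIF alpha subunits are regulated mainly through protein stability, which RNA counts do not measure. Hif1a was at 229 and 223 CPM in the controls and 223 and 219 CPM in the cKO ones (log2 fold change −0.03, SE 0.05, adjusted p = 0.791, edgeR). Epas1 (HIF-2 alpha) was at 15.5 ± 0.76 CPM in the controls and 16.3 ± 1.0 CPM in the cKO libraries (SD, n = 2; log2 fold change 0.07, SE 0.13, adjusted p = 0.834). The groups overlapped for both, and Hif1a made up 92.5% to 93.5% of the pair per length in the 4 libraries.

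**Figure D4:**
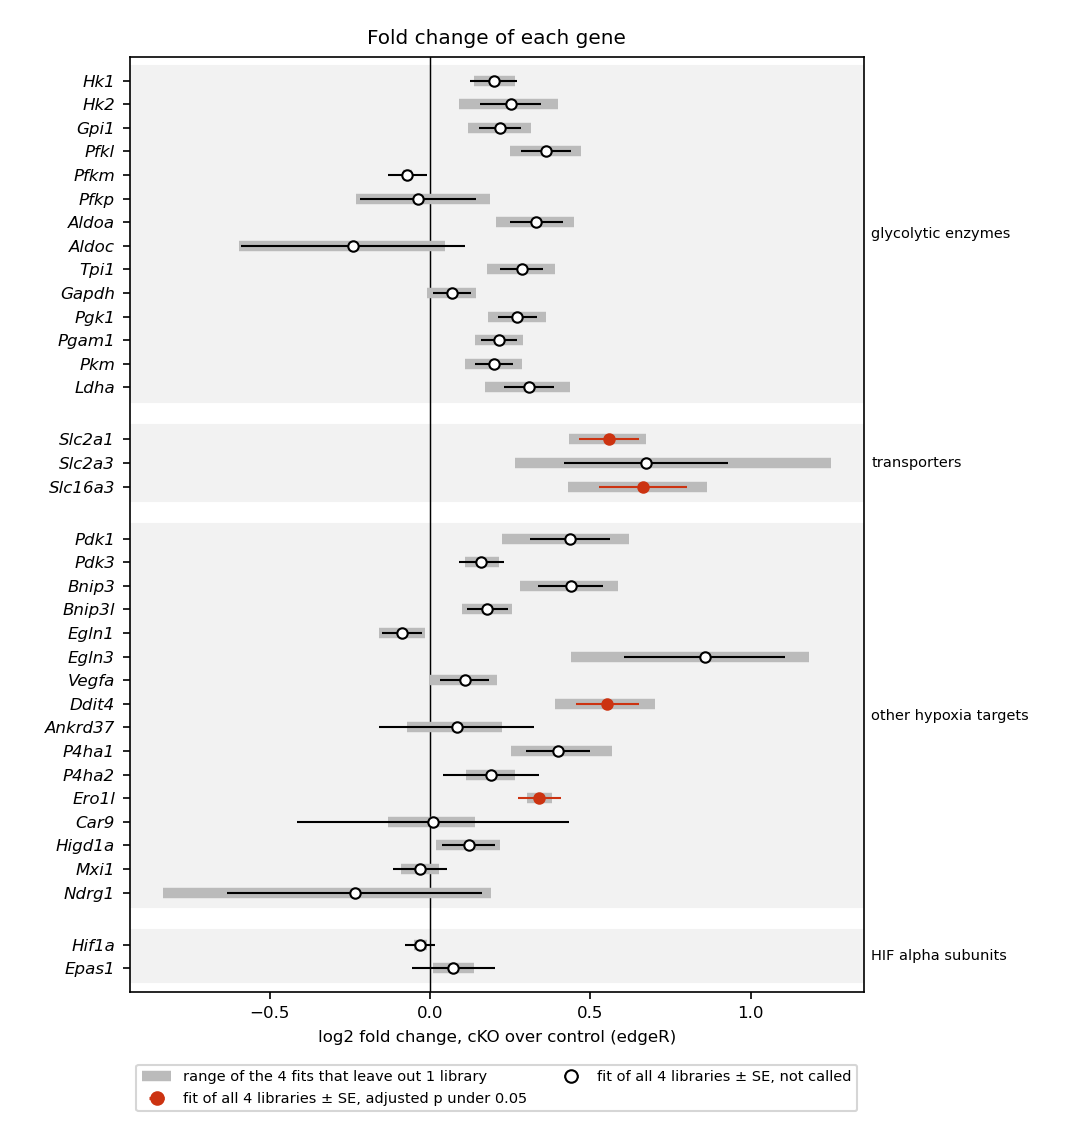
Log2 fold change, cKO over control, of each tested gene in edgeR (points with SE; red, adjusted p under 0.05) with the range over the 4 fits that leave out 1 library (grey bars). The 4 called genes have grey bars wholly above 0, and the bars of Pfkp, Aldoc, Gapdh, Ankrd37, Car9, Mxi1 and Ndrg1 cross 0.

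Neighbouring pathways were described with wider lists. Of 21 tested further genes of glycolysis and glucose entry, 1 was called higher and 0 lower (1.57% and 2.13% of all genes tested). The median log2 fold change was 0.12, with 12 of the 21 above 0, and it was −0.008 to 0.095 with 1 library left out. The called gene was Slc16a1 (MCT1), a carrier of lactate and pyruvate in either direction, at 99.6 and 103 CPM in the controls and 122 and 129 CPM in the cKO ones (log2 fold change 0.30, SE 0.06, adjusted p = 0.0345, edgeR). The call of Slc16a1 ended in 3 of the 4 fits that leave out a library, with an adjusted p of 0.116 (control replicate 1 left out), 0.0678 (cKO replicate 1) and 0.196 (cKO replicate 2). Of 14 genes of the pentose phosphate and glycogen branches, 1 was called higher and 0 lower (1.57% and 2.13% of all genes tested). Their median was −0.001. That gene was listed as Pgm2, at 63.7 and 63.3 CPM against 76.1 and 83.8 CPM (0.33, SE 0.07, adjusted p = 0.0458). The symbols Pgm1 and Pgm2 have been exchanged between the genes of 2 related sugar phosphate mutases, and RefSeq lists each as a synonym of the other, so its function is not given here. Its call ended in limma-voom (adjusted p = 0.0521) and without control replicate 1 (0.120), control replicate 2 (0.0691), cKO replicate 1 (0.0542) or cKO replicate 2 (0.245).

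For the entry of pyruvate into mitochondria, 0 of 12 genes were called by edgeR, 0 had an unadjusted p under 0.05, and DESeq2 and limma-voom called 0; the median was 0.08. The smallest p there belonged to the dehydrogenase subunits Dld (log2 fold change 0.08, adjusted p = 0.451) and Pdhx (−0.13, adjusted p = 0.471). Of 12 regulators and partners of HIF, 0 were called by edgeR, 1 by DESeq2 (Rack1, higher) and 0 by limma-voom, and 2 had an unadjusted p under 0.05 in edgeR. The median was −0.09. Both cKO libraries lay below both controls for 7 of the 12 (58.3%) and above both for 1 (8.33%). Over all genes tested these shares were 24.0% and 24.3%. Among them the scaffold Rack1 had a log2 fold change of 0.16 (adjusted p = 0.0797) and the coactivator Ep300 one of −0.13 (adjusted p = 0.230).

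A list of 33 further hypoxia targets outside the set gave 0 calls by edgeR, DESeq2 and limma-voom, with 10 genes higher and 4 lower at an unadjusted p under 0.05. Over all genes tested, 8.42% were higher at that unadjusted p in edgeR. In either direction 2495 of 14235 were under it. With the replicate block 1 of the 33 was called higher, and 1 was higher in the authors' deposited table at an adjusted p under 0.05. Its median was 0.16, and both cKO libraries lay above both controls for 16 of the 33 (48.5%, against 24.3% of all genes tested). This list too was chosen with earlier results of these data known, so it gives no independent check of the set. The smallest p were those of the mitochondrial protein gene Fam162a (57.4 and 59.9 CPM in the controls, 68.9 and 78.2 CPM in the cKO libraries, adjusted p = 0.0710) and of the hormone gene Stc1 (5.22 and 4.71 CPM against 7.83 and 8.99 CPM, adjusted p = 0.0868). The groups of both genes did not overlap.

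Markers of blood and of other cells moved in the same comparison. Of 9 tested erythroid markers, 7 were called lower and 0 higher, led by Hbb-y, an embryonic globin, and their summed level was 2857 and 3077 CPM in the controls and 1897 and 1811 CPM in the cKO libraries. The adult globins Hba-a1, Hba-a2, Hbb-bt and Hbb-bs were at 0 in every library. Of 15 endothelial markers, 0 were called by edgeR, DESeq2 or limma-voom and 7 had an unadjusted p under 0.05 with a lower level, and 11 had both cKO libraries below both controls where 24.0% of all genes tested did (summed level 403 and 395 CPM against 342 and 348 CPM). Among the endothelial markers, Flt1, a receptor of vascular growth factors, alone had both cKO libraries above both controls (log2 fold change 0.28, unadjusted p = 0.0419, adjusted p = 0.266, edgeR). Of 8 neuron markers, 4 were called lower, with sums of 981 and 772 CPM against 550 and 568 CPM. Among all genes tested, 2.13% were called lower and 1.57% higher. An unadjusted p under 0.05 in edgeR was found for 2495 of the 14235 genes tested, in either direction. With the erythroid genes removed before scaling, the same number of genes of the set, 4, were called higher, and the medians of the enzymes and of the other hypoxia targets were 0.22 and 0.17. That fit takes out the marker rows alone and bears on the scaling. The part of the erythroid, endothelial and neuronal differences in the levels of the glycolysis and hypoxia genes was not tested.

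**Figure D5:**
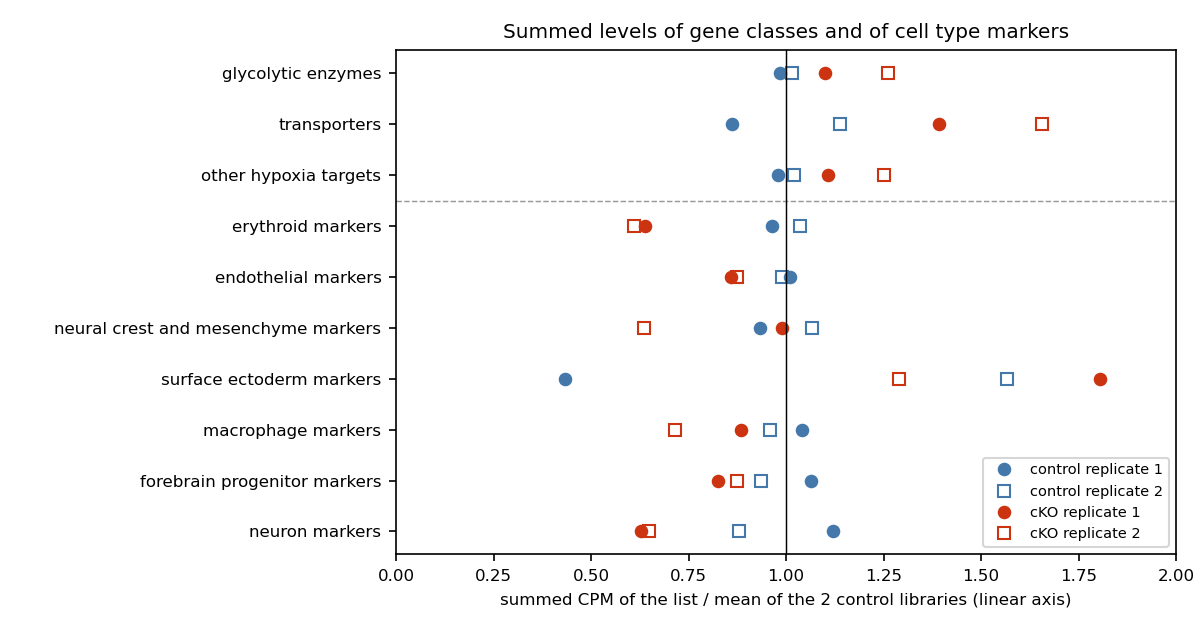
Summed CPM of each class or marker list in each library, divided by the mean of the 2 controls (linear axis from 0; symbols as in the pathway plot). The enzyme, transporter and hypoxia target sums are above both controls in both cKO libraries. The erythroid, endothelial, macrophage, forebrain progenitor and neuron sums are below both controls in both cKO libraries. In neural crest and mesenchyme markers cKO replicate 2 alone is low.

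The cKO libraries differed from each other in the same genes. Replicate 2 of the cKO was the highest of the 4 libraries for 24 of 35 genes (68.6%), where it was the highest for 26.6% of all genes tested. The summed neural crest and mesenchyme markers were lowest in cKO replicate 2 (704 CPM against 1037 to 1183 CPM). So were the macrophage markers (22.8 CPM against 28.2 to 33.2 CPM) and the erythroid markers. The endothelial, forebrain progenitor and neuron sums were instead lowest in cKO replicate 1, and the surface ectoderm sum in control replicate 1. Whether library makeup moves with the glycolysis genes was not tested. Over the whole set, edgeR called 15 genes higher without cKO replicate 1, 8 without control replicate 2, and 0 without control replicate 1 or without cKO replicate 2. The direction of the class medians was higher in the cKO for the enzymes, the transporters and the other hypoxia targets in each of these 4 fits.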

How the data were processed

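The members and all gene lists were chosen with earlier results of these data known. The deposited values are raw read counts per gene, which the authors made with featureCounts 2.0.1 from paired-end reads over exons of an mm10 annotation, per the file headers. HISAT2 and DESeq2 are named, without versions, in the submitters' processing notes. A second table of the authors holds log2 fold changes, p-values and adjusted p-values, and was quoted only where it is named. Its normalized values, a signal in the authors' scaling, were the deposited counts over a factor of 0.99 to 1.013 per library, and its deposited test score was not used.

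Genes were filtered with filterByExpr (minimum count 10), scaled by TMM and compared, cKO against control, in edgeR 4.0.16 under R 4.3.3 (glmQLFit and glmQLFTest, no covariate, two-sided), with Benjamini-Hochberg adjustment across the 14235 genes that remained. Groups follow the genotype labels, and 0 columns lacked a sample. Precision was set by totals of 16581252 to 17096522 counts and a biological coefficient of variation of 0.0785. Replicates were distinct libraries, with a chi-square per degree of freedom of 5.57 (controls) and 4.69 (cKO). The fitting step was tested on simulated data.

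Named were Chd7, all 36 members, of each other pathway list the called genes up to 6 (or the 2 with the smallest p where 0 were called), and, of each cell type list, the most abundant gene and up to 4 called ones, given in part. Exon lengths, shared 50-base stretches and strand overlaps came from GENCODE M21, and coordinates and promoters from RefSeq GRCm38.p6; genes of chromosome 18 were left out of the promoter background. Alternatives tried were no count filter, upper-quartile scaling, DESeq2 size factors, genes of at least 5 CPM, DESeq2 1.42.0 (Wald test), limma-voom (limma 3.58.1), a replicate block, erythroid genes removed, longest-transcript lengths, promoters cut at the start, and each library left out in turn, where the remaining library of that group is taken to vary as the other group does. Plots were drawn with matplotlib 3.10.9.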

Additional observations from a re-analysis of the deposited data

How the results depend on the processing

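The number of genes called higher among all genes was 137 with the replicate number as a block and 80 to 351 with 1 library left out (lower, 131 to 418). For the enzymes, 1 was called higher with upper-quartile scaling, 1 with no count filter, 6 by DESeq2, 2 with the replicate block and 0 to 9 with 1 library left out. For the other hypoxia targets, 4 were called by DESeq2 and 0 to 4 with 1 library left out, and for the transporters 1 over genes of at least 5 CPM, 1 by DESeq2, 1 by limma-voom and 0 to 3 with 1 library left out. Over all members, DESeq2 called 11 and the fits that left out 1 library 0 to 15. With 1 library left out, the median log2 fold change ran from 0.128 to 0.303 over the enzymes, 0.434 to 0.777 over the transporters and 0.161 to 0.221 over the other hypoxia targets. The fewer samples of these fits are part of their construction; the cause of the other changes was not tested. No call changed sign. The replicate numbers do not mark a shared litter in the labels, and same-numbered libraries did not deviate together (correlation −0.022 over 11103 genes); in the block fit 6 members were called, Ero1l lost its call (adjusted p = 0.0715), and Pfkl, Aldoa and Pdk1 gained one. Outside the set, the block ended the calls of Slc16a1 (0.0556) and Pgm2 (0.0824). Of the log2 fold changes of single members under settings that kept all 4 libraries, 257 stayed on the same side of the threshold, 14 gained a call and 5 lost it. The share of members with ACGTG in the 250 bases before the start alone was 68.8%, against 18.5% of the genes compared. It was 46.7% for the enzymes and 85.7% for the other hypoxia targets. The precision for Aldoc, Car9, Ndrg1 and Ankrd37, at 5.03 CPM or less in each library, is limited by depth.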
